A study of Mus musculus with 564 samples.

Results

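The comparison described here is that of bone marrow-derived macrophages (BMDMs) stimulated with interleukin 4 (IL-4) for 30 min against unstimulated (UT) BMDMs, both pre-treated with vehicle only. It was chosen by stimulus, time and compound, and it holds 4 of the 564 libraries of the study, with 2 per group. BMDMs are primary macrophages grown from mouse bone marrow. Those of the study came from male C57/BL6 mice, and no genotype other than wild type was stated. The cells of both groups were kept for 1 h in DMSO, the solvent of the clinical kinase inhibitors (CKIs) that the study screened. One group was then given 10 ng/mL of IL-4 for 30 min. The other received no stimulus. Its titles name time 0 and its treatment label names 4 h without stimulus, so the time these cells spent in culture is not settled by the labels. The sources did not tell whether the 2 replicates of a group came from separate cultures or mice, and p-values therefore measure the spread between these libraries, which may be technical.

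H3K27ac, the acetylation of histone H3 at lysine 27 that is laid on active enhancers and promoters, was measured by ChIP-seq over 59190 cis-regulatory elements (CREs) of the mm10 genome, defined by accessible chromatin. Each value is a read count that was scaled between libraries, and differences are given on the log2(value + 5) scale. Each CRE was assigned to the protein-coding gene with the nearest transcription start site (TSS), which is a label of position and not evidence that the CRE acts on that gene. A CRE centred within 1 kb of a TSS was taken as a promoter. The other vehicle libraries served for comparison, namely IL-4 for 1 h, 2 h and 4 h and LPS at 10 ng/mL for 30 min, with 2 libraries each. A second measurement of the same contrast was available in cells pre-treated with 1 of 58 CKIs, with 60 libraries of IL-4 for 30 min and 73 UT libraries.

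IL-4 is made by T helper 2 cells, mast cells and basophils, and it drives macrophages towards the alternative activation state seen in helminth infection, allergy and tissue repair. Its receptor carries Janus kinases (JAKs), which phosphorylate the transcription factor STAT6 within minutes. STAT6 dimers enter the nucleus and bind a palindrome with a gap of 4 bases between its arms, TTCNNNNGAA, whereas most other STAT dimers prefer a gap of 3 bases. Among the best known STAT6 targets are genes that feed back on the receptor, such as Socs1 and Cish, and genes of the alternative state, such as Arg1, Mrc1 and Pdcd1lg2.

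The STAT6 type of palindrome is shown first as it stands in elements that gained H3K27ac, because the results below return to it. Each stretch has 70 bases of the plus strand of GRCm38.p6 (the mm10 assembly, sequence from RefSeq), 5′ to 3′, with the palindrome in capitals. The elements shown are 5 of the 15 with the largest rises, followed by 5 nearest to genes of the alternative activation list, all taken as examples with a match near the centre of the element.

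Socs1, chr16:10700372-10700441: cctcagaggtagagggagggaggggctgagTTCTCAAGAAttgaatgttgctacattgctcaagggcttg
Tcf7l2, chr19:55577642-55577711: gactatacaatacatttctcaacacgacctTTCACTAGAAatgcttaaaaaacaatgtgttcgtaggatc
St8sia1, chr6:142957596-142957665: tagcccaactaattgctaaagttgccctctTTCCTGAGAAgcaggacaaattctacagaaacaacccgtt
Gsdmc, chr15:63545866-63545935: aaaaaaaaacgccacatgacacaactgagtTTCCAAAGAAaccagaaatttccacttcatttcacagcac
Pdcd1lg2, chr19:29442601-29442670: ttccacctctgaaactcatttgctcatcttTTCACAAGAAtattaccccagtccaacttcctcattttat
Arg1, chr10:24952755-24952824: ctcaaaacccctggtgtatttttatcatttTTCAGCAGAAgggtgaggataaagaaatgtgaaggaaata
Mrc1, chr2:14275968-14276037: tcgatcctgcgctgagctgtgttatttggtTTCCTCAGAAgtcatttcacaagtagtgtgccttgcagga
Egr2, chr10:67493705-67493774: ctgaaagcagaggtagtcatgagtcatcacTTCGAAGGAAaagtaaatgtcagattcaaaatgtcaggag
Flt1, chr5:147748230-147748299: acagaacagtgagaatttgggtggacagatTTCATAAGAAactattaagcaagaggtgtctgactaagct
Tfrc, chr16:32593524-32593593: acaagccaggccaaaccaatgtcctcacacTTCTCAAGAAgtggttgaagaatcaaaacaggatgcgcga

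The library totals after scaling were 6026286 and 5923684 in UT and 6562497 and 6348917 after IL-4. The spacing of the values showed that 1 read was worth 1.41 in IL-4 replicate 1 and 2.35 in replicate 2, which put their depth at about 4657556 and 2699943 reads in CREs. In the UT libraries the spacing was too close to 1 to be read with confidence. IL-4 replicate 2 was thus the shallower of the pair, and it held 1561 CREs at 0 against 415 to 722 in the other 3 libraries. Replicates correlated at Pearson's r = 0.982 in UT and 0.966 after IL-4 across CREs, which are not independent. The SD of the log2 difference between replicates was 0.31 in UT and 0.40 after IL-4. The labelled cell type was checked on CREs that hold the TSS of marker genes. All 10 macrophage markers had such a CRE, with summed values from 9043 to 10565 per library. Of these 11 CREs 0 were called, but few promoters were called at all (2.29% of those tested higher and 0.645% lower). Of 6 B cell markers 2 had a CRE, with a sum of 1 or 2 in each library, and 0 of 4 erythroid markers had one. For 7 neutrophil and progenitor markers, 2 had a CRE (sums of 11 to 23), and for 6 of mast cells and basophils 1 had (5 to 13). One of 6 T cell markers had a CRE (119 and 131 in UT, 111 and 118 after IL-4), as had 4 of 6 of stroma and endothelium (896 and 977, then 928 and 818), none of them called. Of 6 dendritic cell markers only Flt3 had a CRE, which was called higher, from 8 and 6 to 27 and 31.

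H3K27ac rose at 5124 CREs within 30 min of IL-4 and fell at 920. These were 10.9% and 1.96% of the 47018 CREs with a mean of at least 10, at a limma adjusted p under 0.01 and a log2 difference over 1 in size. Without the limit on size, 7960 CREs were higher and 3836 lower. The median rise was 1.52, with 1260 rises over 2 and 195 over 3, whereas the median fall was -1.19 and only 8 falls passed 2. At 5123 of the 5124 CREs called higher, both IL-4 libraries lay above both UT libraries. They were called on these same libraries, so that separation is a description and no support for the calls. The count of falls was less firm than that of rises. It was 1477 without IL-4 replicate 1 and 611 without IL-4 replicate 2, against 4590 and 4745 rises in the same fits. Rises made up 84.8% of the calls. That share was 75.8% when libraries were rescaled to equal medians and 67.1% after quantile normalization, which moved the median difference of all tested CREs from 0.09 to -0.08.

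**Figure D1:**
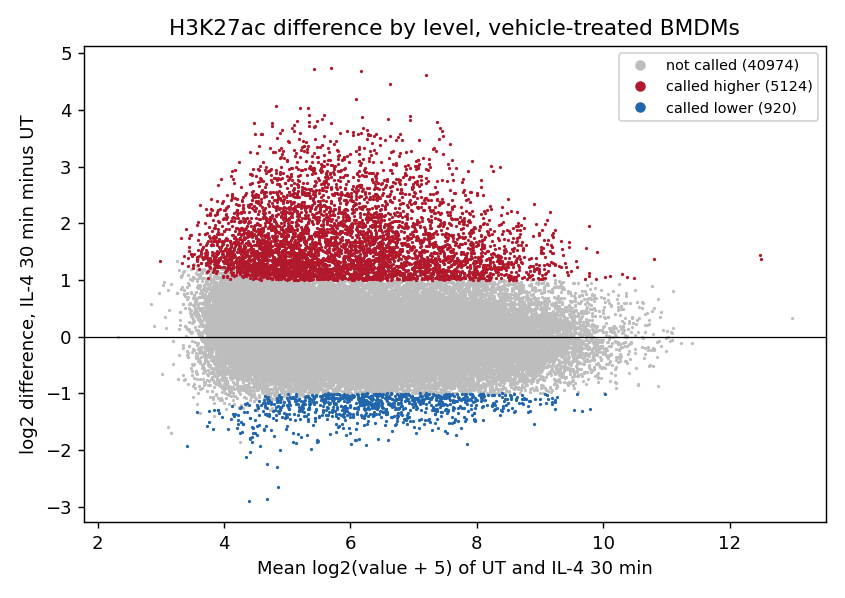
Each point is 1 of 47018 CREs, with the mean log2(value + 5) of the UT and IL-4 30 min groups on the horizontal axis and their log2 difference on the vertical axis. The 5124 CREs called higher reach 4.75, while the 920 called lower stop at -2.89.

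The largest rise was in a CRE 7403 bp downstream of the TSS of Rmi2, a subunit of the complex that resolves DNA recombination intermediates, in a UTR on chr16:10841661-10843263. It held 4 and 6 in UT and 254 and 270 after IL-4, a log2 difference of 4.75 ± 0.17 (SE, adjusted p = 2.72e-27). The neighbouring Socs1, whose product blocks JAKs, had the next largest. That CRE, in a Clec16a intron 85122 bp from the Socs1 TSS, rose from 5 and 2 to 187 and 249 (4.72 ± 0.16, adjusted p = 8.02e-29). A further Socs1 CRE in the same gene body went from 30 and 20 to 728 and 720 (4.62 ± 0.11, adjusted p = 2.86e-34). At all 3 CREs the UT values were a small fraction of those after IL-4, and the replicates of a group lay close together.

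Other genes near the largest rises had varied roles. A CRE 164154 bp upstream of Tcf7l2, a transcription factor of the Wnt pathway, went from 7 and 12 to 361 and 360 (4.68 ± 0.15, adjusted p = 5.45e-29). One that lies 821343 bp from Myc, the growth regulator, went from 16 and 16 to 425 and 489 (4.46 ± 0.13, adjusted p = 3.71e-30). An intronic CRE of St8sia1, the GD3 ganglioside synthase, went from 9 and 13 to 304 and 270 (4.20 ± 0.15, adjusted p = 4.71e-28). These were groups far apart, with no UT library above 16. The list went on with CREs near Spry1, an inhibitor of receptor tyrosine kinase signalling, Gm8113, the glutamate transporter gene Slc1a2, Jarid2, Gsdmc, Zfp459 and Pdcd1lg2. Over the 15 CREs the UT means spanned 2.0 to 27 and the IL-4 means 112.5 to 724.0.

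**Figure D2:**
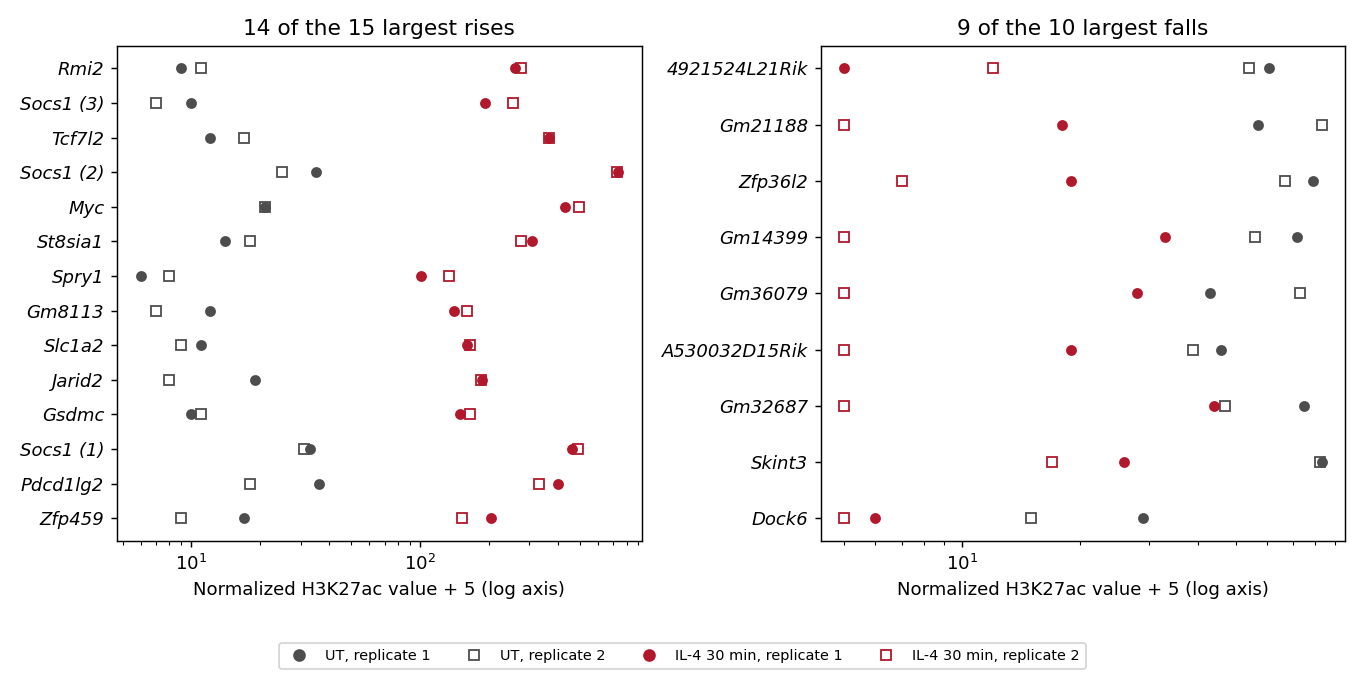
Normalized H3K27ac value + 5, on a log axis, of each of the 4 libraries at 14 of the 15 largest rises (left) and 9 of the 10 largest falls (right), labelled by the nearest gene. The UT and IL-4 points are far apart at every rise shown, whereas at 6 of the 9 falls shown IL-4 replicate 2 sits at 0, drawn here at 5.

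Most of the gains were distal. Of the CREs called higher, 4.84% were promoters against 23.1% of all tested, and the median distance to the nearest TSS was 25840 bp against 11615 bp. Put the other way, 248 of 10850 promoters rose (2.29%) and 4876 of 36168 distal CREs did (13.5%). The share that rose also differed by level, ranked on the UT libraries of CKI-treated cells. It was 22.3% in the lowest of 5 level groups and 2.55% in the highest. The promoter and distal shares were not matched for level, and its part in them was not tested. Nearly equal shares of the CREs called higher and of all tested lay in introns (49.3% and 49.1%). The median UT value was 24.5 at CREs that rose, 120 at those that fell and 60.5 over all tested. These UT values also enter the difference, and a CRE was tested on its mean over libraries that mostly had IL-4. A CRE that was weak in UT could thus pass through its IL-4 values and had little room to fall. The medians and the shares by level are therefore a description only.

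Promoters that gained H3K27ac, picked after their values were seen, were led by Gata3, which codes for a transcription factor best known from T helper 2 cells. Its promoter held 5 and 4 in UT and 116 and 125 after IL-4, a difference of 3.72 ± 0.20 (SE, adjusted p = 7.85e-21). The promoter of Pdcd1lg2, the gene of the T cell inhibitory ligand PD-L2, went from 6 and 8 to 103 and 122 (3.29 ± 0.17, adjusted p = 1.42e-21). That of Slc7a2, a transporter of arginine, went from 14 and 14 to 141 and 155 (3.01 ± 0.18, adjusted p = 1.12e-19). All 3 promoters had IL-4 values far outside the UT range. The promoter of Pan3, part of an mRNA deadenylase, was already acetylated at 110 and 114 and reached 921 and 924 (2.99 ± 0.09, adjusted p = 3.71e-30).

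CREs that gained H3K27ac lay next to each other more often than other CREs did. Of the 5124, 3173 (61.9%) had a gaining CRE as the next tested CRE on either side, which held for 13.0% of the CREs that were not called. The 5124 were nearest to 2279 genes, and 54 genes had 10 or more. Myc led with 35 of its 54 tested CREs higher, all distal. Cited2, the gene of a coregulator that competes for CBP and p300, followed with 33 of 60, and Ado, the gene of a thiol dioxygenase next to Egr2, with 28 of 30. Next came Tnfaip3, the gene of the NF-kB inhibitor A20, with 24 of 35, and the phosphodiesterase gene Pde4d with 23 of 38. Gsdmc and Pan3 had 20 each, and Dock10, Dusp4 and Fyn 19 each. No CRE of these 10 genes was called lower, but the genes were picked for their rises and only 1.96% of all tested CREs fell. Because they are neighbours on the chromosome, such CREs are not separate replicates of a gene's response.

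The list of IL-4 receptor signalling held 21 genes, all with a tested CRE. Of their 177 CREs 54 rose (30.5%, against 10.9% of all tested) and 3 fell (1.69%, against 1.96%). The median difference was 0.42 against 0.09 over all tested. The list was chosen with earlier results of these data known, so its share is a description only. The rises belonged to 10 genes, chiefly feedback regulators, phosphatidylinositol 3-kinase subunits and the adaptor Irs2. The receptor chains, Jak1, Jak3, Tyk2 and Stat6 were not among the 10. None of the 6 CREs of Il4ra was called, with differences from -0.07 to 0.52. Il2rg, Jak3 and Tyk2 also had none called, all between -0.15 and 0.17. The 11 CREs of Jak1 spanned -0.78 to 0.83 and the 3 of Stat6 -0.77 to -0.32, none of them called.

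Among the feedback regulators all 11 tested CREs of Socs1 rose, from 1.39 to 4.72. Its promoter went from 251 and 274 to 1160 and 1277 (2.19 ± 0.08, adjusted p = 9.66e-27). The promoter of Cish, which codes for another SOCS protein, went from 68 and 73 to 296 and 256 (1.89 ± 0.12, adjusted p = 3.65e-18). A distal Cish CRE rose more, from 27 and 21 to 159 and 193 (2.64 ± 0.14, adjusted p = 2.05e-21). At Socs2 the promoter went from 37 and 31 to 163 and 153 (2.07 ± 0.15, adjusted p = 6.02e-16). Socs5 had 7 of 9 CREs higher, up to 3.28. The Socs3 promoter was the weakest of these, from 269 and 222 to 533 and 503 (1.07 ± 0.11, adjusted p = 4.33e-11). Its difference fell to 0.96 after median rescaling and 0.93 without UT replicate 2, below the limit of 1. The phosphatase genes had few CREs called. Of the 20 of Ptpn1, 1 was higher (1.49) and 1 lower (-1.35), and Ptpn11 had 1 lower (-1.05, adjusted p = 0.00851). The Ptpn11 fall was not called when any 1 of the 4 libraries was left out (adjusted p from 0.0250 to 0.0929), nor with a pseudocount of 1 (adjusted p = 0.0156) or 20 (-0.76).

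Of the kinases, Jak2 had 6 of 8 CREs higher, led by one 11098 bp upstream of its TSS that went from 45 and 47 to 435 and 447 (3.13 ± 0.13, adjusted p = 1.15e-24). That CRE averaged 378.5 after 30 min of LPS, with 307 and 450 in the 2 libraries, so it was high with either stimulus. Irs2, which couples the receptor to phosphatidylinositol 3-kinase, had 12 of 31 CREs higher, up to 2.76. Pik3r1 had 8 higher, up to 2.89, and Pik3cd 2. The receptor chain gene Il13ra1 had 1 CRE lower, from 110 and 122 to 58 and 28 (-1.41 ± 0.27, adjusted p = 4.50e-05), which was -0.94 and not called without IL-4 replicate 2.

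The alternative activation list showed the largest share. Of 29 genes 27 had a tested CRE. Of their 246 CREs 128 rose (52.0%, against 10.9% of all tested) and 1 fell (0.407%, against 1.96%), with a median of 1.11. The rises covered 22 genes and included 11 of 23 promoters, against 2.29% of all tested promoters. Myc alone gave 35 of the 128. The list was drawn up with results of these data in view, so its share is no independent evidence of its direction.

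At Arg1, the arginase gene and a classic marker of this state, all 7 CREs rose. Its promoter went from 123 and 141 to 692 and 604 (2.25 ± 0.10, adjusted p = 8.34e-24). The promoter of the lectin gene Mgl2 went from 95 and 78 to 564 and 524 (2.59 ± 0.11, adjusted p = 2.05e-24). At Mrc1, the gene of the mannose receptor CD206, 10 of 14 CREs rose, up to 2.49. All 7 CREs of Pdcd1lg2 rose, the strongest from 31 and 13 to 397 and 325 (3.84 ± 0.18, adjusted p = 2.14e-23). At Flt1, the gene of a VEGF receptor, 11 of 12 rose. The chemokine gene Ccl24 had 4 higher, with a promoter that went from 62 and 51 to 178 and 158. Clec10a and Fn1 had 1 CRE higher each, at 1.43 and 1.41.

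Transcription factor genes of the list also had CREs that rose. Klf4 had 11 of 31 CREs higher, led by one that went from 9 and 9 to 190 and 183 (3.77 ± 0.16, adjusted p = 1.54e-24). The Egr2 promoter went from 211 and 219 to 737 and 743 (1.76 ± 0.10, adjusted p = 1.21e-20), the Batf3 promoter from 67 and 87 to 221 and 202 (1.41 ± 0.14), and a distal Irf4 CRE from 41 and 49 to 310 and 325 (2.69 ± 0.12). Pparg, the gene of the nuclear receptor for fatty acids, had 4 higher with a maximum of 1.49. Ppard had 1 CRE higher and 1 lower, and its rise of 1.10 was not called without IL-4 replicate 1 (1.14, adjusted p = 0.0120), IL-4 replicate 2 (1.05) or UT replicate 2 (0.84). Not every gene of the alternative state was marked at 30 min: the 1 tested CRE of Retnla had a difference of 0.80, the 2 of Ccl17 -0.41 and 0.29, and the 3 of Alox15 0.03 to 0.21, none called. Chil3 and Ccl22 had no tested CRE.

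Some genes usually named for the response to LPS also gained H3K27ac. Of 171 CREs of 23 such genes 57 rose (33.3%, against 10.9% of all CREs) and 2 fell (1.17%, against 1.96%), with a median of 0.53. The rises belonged to 10 of the 23 genes, and 24 of them were at Tnfaip3. The Cd40 promoter, of a costimulatory receptor, went from 98 and 80 to 355 and 294 (1.81 ± 0.13, adjusted p = 9.87e-17). The Il1a promoter went from 24 and 29 to 121 and 103 (1.89 ± 0.26, adjusted p = 3.66e-08), and that of Il6 from 30 and 31 to 87 and 71 (1.24 ± 0.24, adjusted p = 5.10e-05). After 30 min of LPS these promoters averaged 589.5, 347.5 and 111.5. None of the CREs of Tnf, Ccl3, Ccl5, Cxcl1, Cxcl2 and Nfkbia was called, and their differences ran from -0.76 to 0.67. Near Nfkbiz 1 CRE fell from 153 and 161 to 56 and 68 (-1.28 ± 0.24, adjusted p = 2.62e-05), where LPS gave a mean of 455.0.

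The other lists had shares of rises nearer to the 10.9% of all CREs, and shares of falls between 0% and 12.7% against 1.96%. Immediate early genes had 22 of 212 CREs higher (10.4%) and 11 lower (5.19%), the largest of them a CRE of Klf6 at 2.94 and one of Egr3 at -1.76, and none of their 20 promoters was called. Interferon response genes had 5 of 63 higher (7.94%) and 0 lower, and 0 of their 18 promoters was called. Of all tested promoters 2.29% were called higher and 0.645% lower. The lack of calls among 18 or 20 promoters therefore does not set these lists apart. Genes of macrophage lineage had 19 of 263 higher (7.22%) and 11 lower (4.18%). Genes of lipid handling and the lysosome had 17 of 126 higher (13.5%) and 16 lower (12.7%). Single genes made up most of both counts, with 14 of the 16 falls at Abca1 and 9 of the 17 rises at Cd36, the gene of a fatty acid and lipoprotein receptor. In the housekeeping list 0 of 44 rose and 1 fell.

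Falls were smaller, and most of the largest lay in repeated sequence, where the mapper has to choose between positions. Of the 10 largest falls, 7 were in CREs with over 60% of their 51-base words found elsewhere in the genome, and 8 were at 0 in one of the IL-4 libraries. The promoter of Gm21188 was among them, from 52 and 78 to 13 and 0 (-2.86 ± 0.35, adjusted p = 3.81e-09), with 95.8% of its words repeated. So was that of Gm32687, from 70 and 42 to 39 and 0, whose difference was -0.43 without IL-4 replicate 2. Of all 920 falls, 12 were at 0 in that library, and the part of repeated sequence and depth in the falls was not tested. The repeated share was computed for named CREs only, so none is given for all falls or all tested CREs. At the 15 largest rises it was at most 43.7%, near Gm8113. The largest fall in unrepeated sequence was a CRE 159213 bp from Zfp36l2, a gene of an mRNA decay factor, from 74 and 62 to 14 and 2 (-2.66 ± 0.34, adjusted p = 1.03e-08).

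Abca1, the gene of the main cholesterol exporter, and Zfp36l2 had the most CREs lower of any gene, 14 each. Abca1 had 14 of 17 CREs lower and none higher, and its promoter went from 305 and 358 to 106 and 127 (-1.47 ± 0.17, adjusted p = 7.99e-10). Abcg1, of a related exporter, moved the other way at a CRE that went from 38 and 20 to 175 and 195 (2.53 ± 0.17, adjusted p = 8.01e-18). Zfp36l2 had 14 of 37 lower and 1 higher. The integrin gene Itgb5 had 9 of 12 lower, and Gna12 had 7 of 10. Cx3cr1, the fractalkine receptor gene, had 5 of 6 lower. Its promoter went from 288 and 296 to 144 and 115 (-1.15 ± 0.16, adjusted p = 5.88e-08), and a CRE in its UTR from 174 and 142 to 38 and 45 (-1.81 ± 0.24, adjusted p = 2.87e-08).

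Whether the changes returned in other libraries was asked in CKI-treated cells, which share no library with the vehicle groups. There, averaged over 58 compounds in a limma fit with compound as a factor, 2186 of the same 47018 CREs were called higher (4.65%) and 54 lower (0.115%). Compounds are not replicates of the vehicle and may change the response. The p-values of that fit measure the spread of the difference between compounds and their libraries. Of the 5124 CREs that rose in vehicle, 2153 were called higher (42.0%), 0 were called lower, and 5029 were above 0 at an adjusted p under 0.01 regardless of size, as were 14583 of all 47018 (31.0%). Of the 920 that fell, 49 were called lower (5.33%), 0 higher, and 832 were below 0 at that adjusted p, as were 10269 of all tested (21.8%). The medians were 0.91 and -0.59, smaller than the 1.52 and -1.19 of the vehicle contrast on which the CREs had been called. The 15 largest rises kept differences of 1.90 to 3.13. Of the 10 largest falls, 4 were below 0 at an adjusted p under 0.01 and 3 had a difference above 0, nearest to A530032D15Rik (0.29, adjusted p = 0.0416), Dock6 (0.07) and Gm14399 (0.04).

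**Figure D3:**
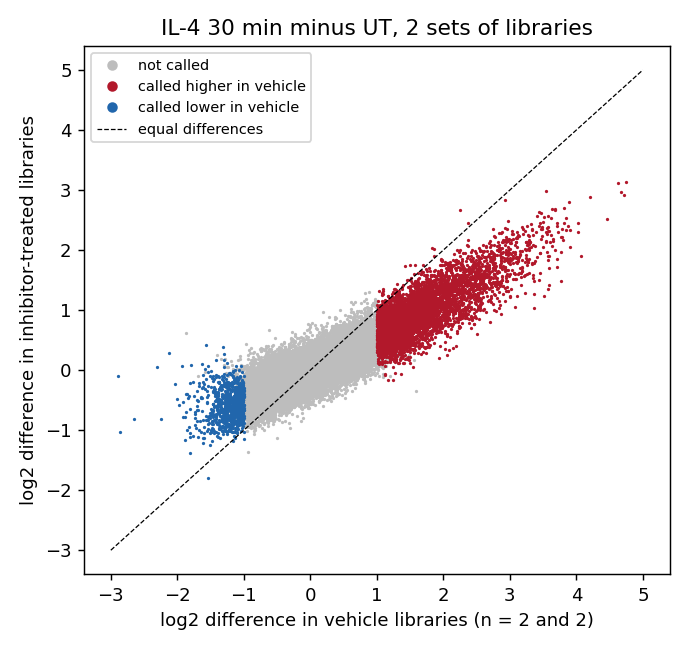
Each point is 1 CRE, with the log2 difference of IL-4 30 min minus UT in the 4 vehicle libraries on the horizontal axis and the mean over 58 compounds on the vertical axis, and a dashed line of equal values. Red and blue points, called higher and lower in vehicle, lie almost wholly on the same side of 0 in both sets but below the line at the rises.

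For each compound, the median difference over the 5124 CREs was above 0, from 0.37 to 1.69 with a middle value of 0.96, and the median over the 920 was below 0, from -0.85 to -0.03. Most compounds had 1 library of IL-4 for 30 min, so single compounds were not tested. The median over all tested CREs also moved between compounds, from -0.22 with Talmapimod, which had the 0.37, to 0.60 with Lenvatinib, and it was 0.52 with SGX523, which had the 1.69. For the 6 compounds that target JAKs, the median over the CREs that rose was 0.76 with Filgotinib, 0.80 with Momelotinib, 0.88 with BMS911543, 1.08 with Ruxolitinib, 1.09 with Tofacitinib and 1.22 with Pacritinib. They lay within the range of the other compounds, and their medians over all tested CREs ran from 0.02 to 0.13. Some named rises were small there. A CRE 10245 bp upstream of Tgm2, the transglutaminase gene, went from 54 and 40 to 228 and 190 in vehicle (2.05 ± 0.23, adjusted p = 1.79e-10) but by 0.25 in CKI-treated cells, and the difference between the sets was not tested.

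The levels at 30 min were then set beside those of the later times. These comparisons share the UT or the IL-4 30 min libraries with the calls, so only levels, with no test, are given for the called CREs. Over the 5124 CREs that rose, the median value was 24.5 in UT, 96.5 at 30 min, 89.0 at 1 h, 79.8 at 2 h and 74.5 at 4 h. Over the 920 that fell it was 120 in UT, 50.5 at 30 min, 52.5 at 1 h, 52.2 at 2 h and 70.5 at 4 h. Over all tested CREs, 3661 were higher at 30 min than at 4 h (7.79%) and 1141 lower (2.43%). The higher share of these calls was 76.2%, and 61.7% after quantile normalization. Of the 15 largest rises 10 were higher still at 4 h, with means of 113.5 to 1165.0.

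Single CREs followed different courses. The distal Cish CRE went on rising, from 159 and 193 at 30 min to 622 and 577 at 4 h. The Socs1 CRE with the largest rise climbed as well, from 187 and 249 to 468 and 448. The Klf4 CRE stood at 263 and 353 at 4 h, above its 190 and 183 at 30 min. These 3 CREs had no overlap between the times. The Rmi2 CRE stood at 153 and 190 at 4 h, below both of its 30 min values. The Tgm2 CRE was back to 43 and 51 at 2 h and held 15 and 18 at 4 h, below its UT values. An intronic Il1rn CRE, of the interleukin 1 receptor antagonist gene, went from 44 and 43 in UT to 107 and 89 at 30 min and 34 and 30 at 4 h. Its rise of 1.08 was 0.98 and not called after median rescaling, and was not called without IL-4 replicate 1 or without either UT library.

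**Figure D4:**
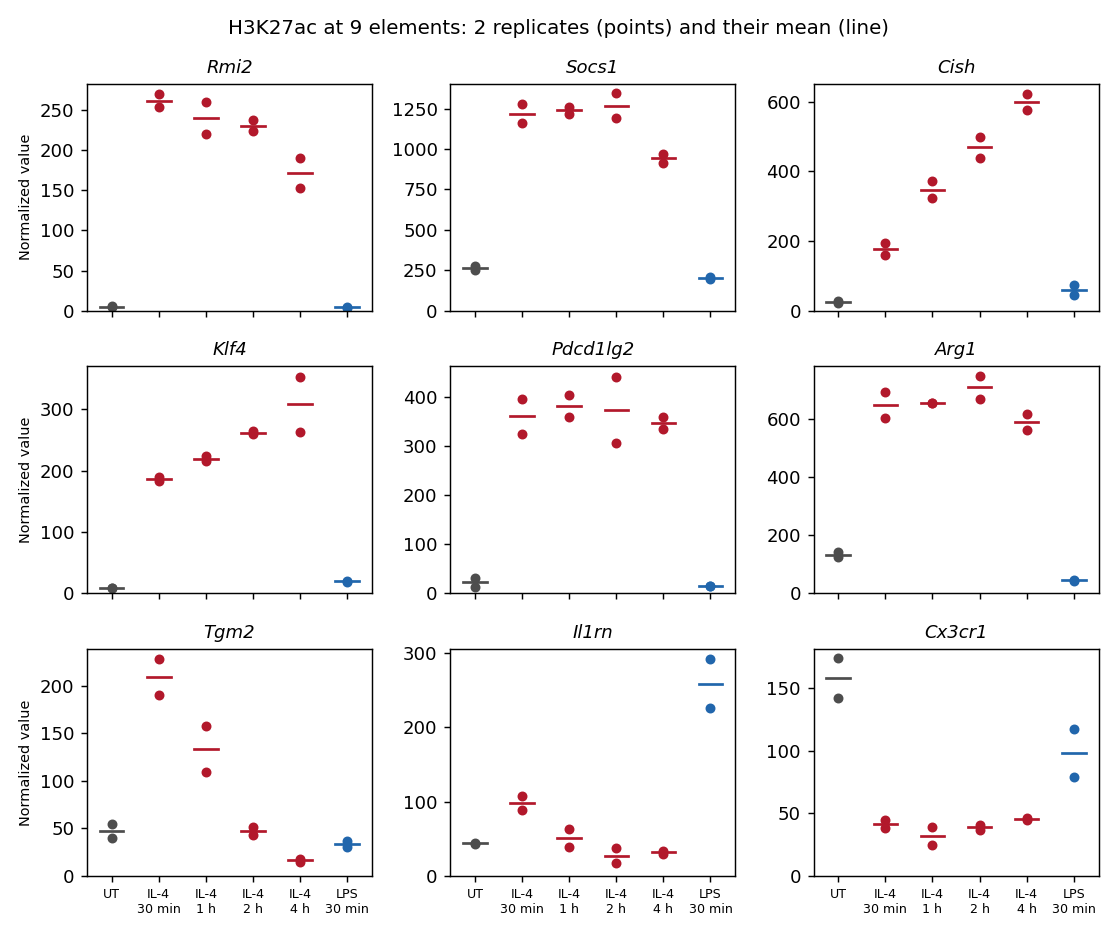
Normalized H3K27ac values of 9 CREs in vehicle libraries (2 points per group, line at their mean) in UT, at 4 times of IL-4 and after 30 min of LPS. The Cish and Klf4 CREs climb to 4 h, those of Rmi2, Pdcd1lg2 and the Socs1 and Arg1 promoters are high from 30 min on, those of Tgm2 and Il1rn peak at 30 min of IL-4 among the IL-4 times, and that of Cx3cr1 drops at 30 min.

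LPS for 30 min served as another stimulus. Replicate 1 of this group was shallower than IL-4 replicate 2, at about 2346043 reads in CREs with 1180 CREs at 0. The LPS replicates correlated at Pearson's r = 0.962, and the SD of their log2 difference was 0.44. In the fit over all 18 vehicle libraries, 8632 of 50587 CREs were higher with IL-4 than with LPS (17.1%) and 6248 were lower (12.4%). The excess of higher calls depended on the scaling, with 7271 higher and 7443 lower after median rescaling (49.4% higher against 58.0%). Because the CREs below were chosen on the same IL-4 libraries, their values after LPS are given with no test. The CREs that rose with IL-4 had a median value of 34.5 after LPS, against 96.5 after IL-4 and 24.5 in UT. Those that fell had a median of 46.8 after LPS, 50.5 after IL-4 and 120 in UT. Both stimuli are here set against the same UT libraries, so the shared low values are no independent evidence of a shared fall. At the 15 largest rises the LPS means spanned 4.0 to 63.0. The Rmi2 CRE held 5 and 3 after LPS, and the Tcf7l2 CRE held 18 and 9. Among the loci that the study used for qPCR, 2 held a CRE. The CRE at Il1rl2, of a receptor of the interleukin 36 family, went from 37 and 34 to 234 and 266 with IL-4 (2.65 ± 0.14, adjusted p = 1.68e-21) and averaged 27.5 with LPS. The CRE near Fpr2, in an Fpr3 intron, held 120 and 92 in UT and 72 and 49 with IL-4 (-0.77 ± 0.25, adjusted p = 0.0144, not called) and averaged 782.5 with LPS.

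The palindrome TTCNNNNGAA, sought in the central 300 bases of each CRE, stood in 31.7% of the CREs that rose, 4.13% of those that fell and 9.66% of all tested. The centre is the midpoint of the deposited interval, and since the intervals were 1406 to 61924 bp wide (median 1652 bp) it need not be the summit of an ATAC-seq peak. A palindrome reads the same on both strands, so 1 strand was enough. Its share grew with the size of the difference, from 5.0% of CREs between -0.5 and 0 to 26.1% between 1 and 2, 46.1% between 2 and 3 and 51.3% of the 195 over 3. Read from the motif, 35.8% of the 4542 CREs that held it rose, and 8.24% of the 42476 without it did. At promoters that rose the share was 21.4%, against 5.40% of all tested promoters. At distal CREs that rose it was 32.2%, against 10.9% of all tested distal CREs. The central 300 bases were 45.0% G or C in CREs that rose and 50.2% in all tested, and the shares were not matched for this. The palindrome with a gap of 3, TTCNNNGAA, stood in 21.5% of the CREs over 3 and 7.37% of those between -0.5 and 0. The motifs of other macrophage factors varied less. The AP-1 motif TGANTCA, also a palindrome, stood in 24.8% of CREs that rose and 19.1% of all tested. The PU.1 core AGAGGAA, on either strand, stood in 22.6% and 20.4%. Over whole CREs the 4-base gap palindrome was in 65.5% of rises and 43.2% of all tested, so a match over the whole length says less.

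**Figure D5:**
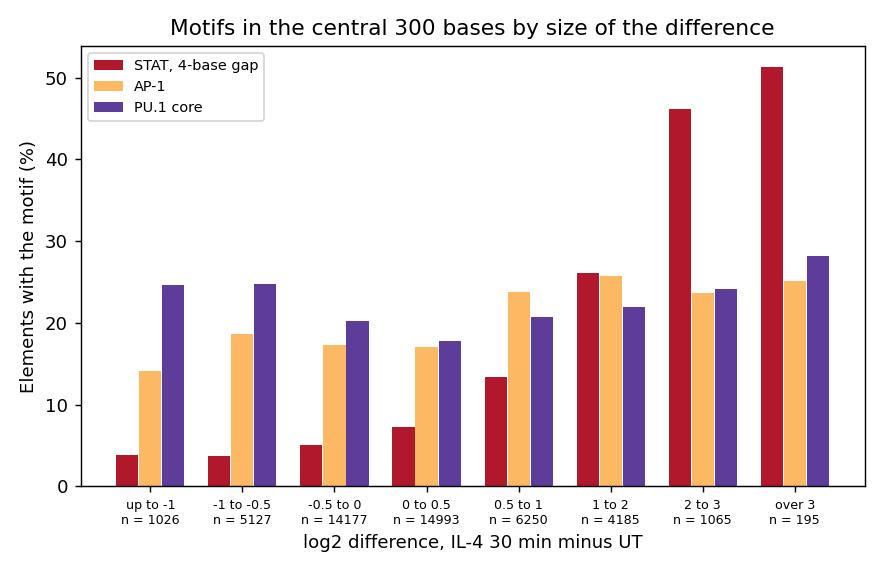
Share of tested CREs with each motif in their central 300 bases (vertical axis, percent) by log2 difference of IL-4 30 min minus UT (horizontal axis, with the number of CREs). The STAT palindrome with a gap of 4 bases climbs from 3.80% of CREs at or below -1 to 51.3% above 3, while the AP-1 and PU.1 shares stay between 14.1% and 28.2%.

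Of the 15 largest rises 11 had the palindrome in their central 300 bases and 14 in the whole CRE. In the sequences printed above, the match in the Socs1 CRE lay -8 bp from the centre of the element, that of Tcf7l2 10 bp, that of St8sia1 16 bp and that of Egr2 -12 bp. The Rmi2 CRE, with the largest rise of all, held no match. In the Myc CRE the 1 match lay -616 bp from the centre. A match is a description of the sequence, and binding of STAT6 was not measured in these libraries.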

How the data were processed

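H3K27ac ChIP-seq reads were trimmed by the authors to 51 bases, mapped to mm10 with ShortStack (the submitters' processing notes also name Bowtie and SAMtools), counted around ATAC-seq peaks and scaled with 1 factor per library from peaks that did not vary. The paper's methods describe windows of fixed width, whereas the deposited elements vary in width, and no source used here says how they were merged. The deposited values are rounded scaled counts and were treated as a score. Raw counts were not used here, so count models were not applied.

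CREs were annotated with GENCODE vM21. Differences were fitted with limma 3.58.1 (R 4.3.3) with a mean trend on log2(value + 5), over the 10 vehicle UT and IL-4 libraries, all 18 vehicle libraries for LPS, or the 133 CKI-treated libraries with compound as a factor. CREs with a mean of at least 10 were tested, with Benjamini-Hochberg adjustment over all of them, and called at an adjusted p under 0.01 and a log2 difference over 1 in size. The log2 scale understates changes of low values. The fits were tested on simulated data. Named CREs are the 15 largest rises, the 10 largest falls, the largest rise and fall per gene list, the most changed CRE of each called gene of the first 2 lists, the genes with most called CREs and the qPCR loci. Promoters, list promoters and genes without calls that are named were chosen after their values were seen, as was the use of TSS-holding CREs for markers. Members and lists were chosen with earlier results of these data known. The named values of 3 genes are not reported here, and they enter only counts and ranges.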

Additional observations from a re-analysis of the deposited data

How the results depend on the processing

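No setting reversed the direction of any of the 67 CREs named by the rules above. CREs named only after their values were seen, such as the promoters of Gata3, Arg1 and Cx3cr1, were not followed singly under these settings. Of the 49 rises among the 67, 45 kept their call under every alternative run, and 9 of the 17 falls lost it under 1 or more. Against UT, a pseudocount of 20 gave 3358 rises and 418 falls and a mean of at least 50 gave 3274 and 586. Falls numbered 1961 after quantile normalization, 1432 after median rescaling and 3202 at a log2 limit of 0.5. Leaving out 1 of the 4 libraries gave 4177 to 4882 rises and 611 to 1477 falls, and with 1 library left in a group it is assumed to vary like the others. Against IL-4 4 h, a pseudocount of 20 gave 2053 higher and 528 lower and a mean of at least 50 gave 2114 and 608, and quantile normalization gave 1835 lower. Against LPS, a mean of at least 50 gave 3591 lower. In CKI-treated cells, a pseudocount of 1 gave 84 lower, a pseudocount of 20 gave 1359 higher and 14 lower, quantile normalization 103 lower, median rescaling 111 lower, and a log2 limit of 0.5 gave 6669 higher and 2234 lower. Searched over whole CREs, the STAT palindrome was in 65.5% of rises, 31.0% of falls, 40.7% of uncalled and 43.2% of all tested CREs. Fewer CREs tested or a stricter or looser limit is part of these settings, and for the rescalings the cause was not tested.

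Leaving out CREs at 0 in a compared library, chosen after seeing the data, gave 5099 rises and 907 falls. The labels number the replicates 1 and 2 in every group, and nothing says that a number marks a shared culture. Deviations of same-numbered UT and IL-4 30 min libraries correlated at 0.02. With the replicate block there were 5119 rises and 922 falls, of which 5108 and 914 were those of the fit without it. No call of a CRE named by the rules changed with it.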
